A study of Mus musculus with 12 samples.

Results

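The immunity-related GTPases (IRGs) are interferon-inducible proteins that defend mouse cells against bacteria and protozoa living inside vacuoles. The 8 genes described here, Irgm1, Irgm2, Igtp, Iigp1, Tgtp1, Tgtp2, Gm12250 and Ifi47, were taken by gene symbol from the 40050 genes listed in a count table of mouse colon RNA. All 8 passed the filter on low values, which asked for 10 normalized counts on average across the libraries and kept 23263 genes. Mice carried either a knockout of Glul (glutamine synthetase) restricted to myeloid cells, Glul∆Lyz2, or were Glul f/f littermates, and both genotypes were given water or dextran sulfate sodium (DSS), which injures the colon lining. The groups, of 3 libraries each, are called WT_H2O, KO_H2O, WT_DSS (libraries 1, 2 and 4) and KO_DSS, with WT meaning the f/f littermates, whose floxed Glul is not deleted. Lyz2 restricts the deletion to myeloid cells, while whole colon was sequenced. The labels give neither the dose and duration of DSS nor the age of the mice. The labels do not say that each library is a separate animal, so p-values below reflect only how far these samples vary, and that variation may be technical. In whole tissue, fewer cells of a type and less RNA per cell cannot be told apart.

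IRG proteins fall into 2 classes in the mouse. The regulatory class (Irgm1, Irgm2 and Igtp, also known as Irgm3) sits on the cell's own membranes and holds the effector class in its inactive state. The effector class (Iigp1, also known as Irga6, the Irgb6 proteins of Tgtp1 and Tgtp2, Irgb10 from Gm12250, and Irgd from Ifi47) is loaded onto the membrane of a pathogen's vacuole and breaks it. The classes are told apart by a residue of the first nucleotide-binding loop, methionine in the regulators in place of the lysine that most GTPases carry. Transcription of the family is switched on by interferon gamma through GAS elements, and by type I interferons through ISRE elements.

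The loop that divides the classes was read from the GENCODE M21 transcripts (GRCm38) as 8 codons, 24 bases, and the codon at position 7 is in capitals. It is shown because the size of the response to DSS is described by class below.
Irgm1: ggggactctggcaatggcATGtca
Irgm2: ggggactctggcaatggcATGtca
Igtp: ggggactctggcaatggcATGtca
Tgtp1: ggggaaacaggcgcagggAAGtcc
Tgtp2: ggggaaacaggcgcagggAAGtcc
Gm12250: ggggagacaggggcagggAAGtcc
Ifi47: gggcagtctgggactggcAAGtcc
The 3 regulators shared all 24 bases and carried the methionine codon ATG. The 4 effectors shown carried the lysine codon AAG, and Tgtp1 and Tgtp2 were again identical. The loop of Iigp1 is not printed, and its residue at that position is also lysine. The codons lie at chr11:48866761-48866784 (minus strand) for Irgm1, chr11:58219695-58219718 (plus) for Irgm2, chr11:58206275-58206298 (plus) for Igtp, chr11:48987667-48987690 (minus) for Tgtp1, chr11:49059534-49059557 (minus) for Tgtp2, chr11:58187981-58188004 (plus) for Gm12250 and chr11:49095648-49095671 (plus) for Ifi47. Each stretch lay within 1 annotated exon.

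Promoters were taken from RefSeq (GRCm38.p6), as 300 bases around the annotated start, and 7 of the 8 genes had an entry that was used. The windows below show the matches to the ISRE core GAAANNGAAA and the GAS element TTCNNNGAA in capitals, each searched on both strands. They are shown because the levels of these genes were correlated across libraries.
Irgm1: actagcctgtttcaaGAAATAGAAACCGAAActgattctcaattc
Irgm2: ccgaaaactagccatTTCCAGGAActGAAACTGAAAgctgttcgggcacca
Igtp: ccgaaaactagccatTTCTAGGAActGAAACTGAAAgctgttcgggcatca
Tgtp1: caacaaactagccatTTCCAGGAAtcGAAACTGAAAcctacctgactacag
Tgtp2: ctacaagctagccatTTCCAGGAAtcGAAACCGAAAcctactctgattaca
Gm12250: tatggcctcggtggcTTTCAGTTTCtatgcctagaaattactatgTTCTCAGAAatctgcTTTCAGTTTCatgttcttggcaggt
The windows lie at chr11:48871421-48871465 (minus) for Irgm1, chr11:58214887-58214937 (plus) for Irgm2, chr11:58199496-58199546 (plus) for Igtp, chr11:48992299-48992349 (minus) for Tgtp1, chr11:49064258-49064308 (minus) for Tgtp2 and chr11:58183737-58183821 (plus) for Gm12250. An ISRE core was present in 6 of the 7 promoters and a GAS element in 5, and all 5 of these held both. Of 32851 mouse promoters of the same length, 3.44% held the ISRE core, 8.30% the GAS element and 0.454% both. In Irgm2, Igtp, Tgtp1 and Tgtp2 the GAS element ended 2 bases before the ISRE core. The Irgm2 and Igtp windows differed at 2 of 51 bases and the Tgtp1 and Tgtp2 windows at 12. The Irgm1 window held 2 ISRE cores that overlap each other. For Ifi47 neither motif was found in its 300 bases, which says only that these letters are absent from that window.

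Libraries held between 14.7 M (KO_DSS 3) and 41.2 M reads (KO_H2O 2), and the KO_DSS group was the shallowest at 14.7 to 31.0 M. The targeted gene, Glul, had normalized counts of 7852, 7709 and 2261 in WT_H2O 1, 2 and 3, and of 1655, 5618 and 2725 in KO_H2O 1, 2 and 3. On DSS it stood at 7372, 7895 and 18267 in WT_DSS 1, 2 and 4, and at 4225, 3273 and 6723 in KO_DSS 1, 2 and 3. The genotypes overlapped on water. On DSS they did not overlap, as for 7.07% of all genes tested, with 6723 the highest in KO and 7372 the lowest in WT. Glul did not pass the test in either treatment.

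On DSS every IRG gene was higher than on water in both genotypes. The log2 changes, on the scale of log2(normalized count + 1), ran from 2.41 to 6.60 in WT and from 3.01 to 6.40 in KO, and the changes of the effectors Iigp1, Tgtp1, Gm12250 and Tgtp2 were above those of the 3 regulators in both. In limma's test with Benjamini-Hochberg adjustment over all 23263 genes, 7 of 8 members rose in WT, where 2.16% of all genes tested rose. All 8 rose in KO, where 5.0% of genes rose (1162 of 23263). With both genotypes averaged, all 8 rose against 13.0% of genes, with adjusted p between 0.000354 and 0.00388. The median log2 change of the 8 was 4.40 in WT and 4.73 in KO, beside medians of -0.02 and -0.10 over all genes tested. Every DSS library exceeded every water library for 8 of 8 members in each genotype, a pattern held by 16.9% of genes tested in WT and 14.7% in KO.

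**Figure D1:**
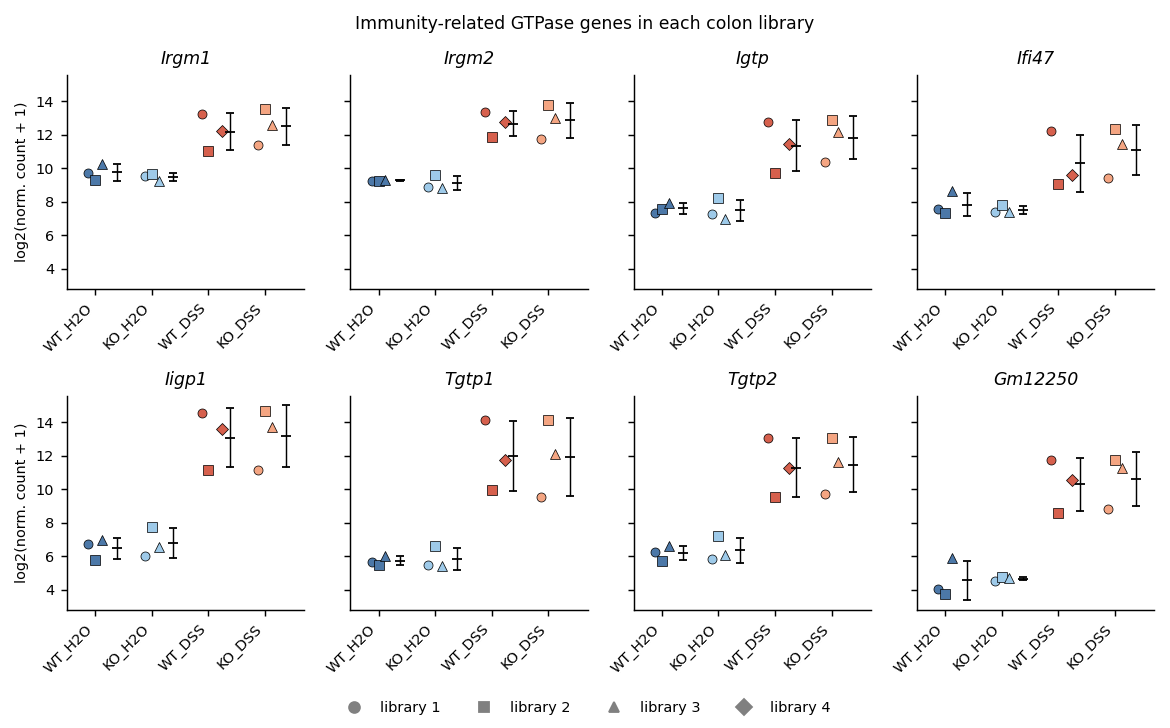
Level of each IRG gene, as log2(normalized count + 1), in the 12 colon libraries by group. Points are libraries, with the shape giving the library number, and the bar to their right is the group mean ± SD (n = 3). In every panel the 6 DSS libraries lie above the water libraries of their genotype, and WT_DSS 1 and KO_DSS 2 are the highest of their groups.

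Among the regulators, Irgm1, which in mice is needed for the survival of T cells and macrophages in infection, had normalized counts of 851, 622 and 1244 in WT_H2O 1, 2 and 3, and of 754, 821 and 604 in KO_H2O 1, 2 and 3. On DSS it reached 9733, 2095 and 4864 in WT_DSS 1, 2 and 4, and 2653, 11865 and 6182 in KO_DSS 1, 2 and 3. The groups did not overlap, although WT_DSS 2 was only 1.69 times the highest WT water library. Its log2 change was 2.41 ± 0.57 (SE) in WT (limma, adjusted p = 0.0400) and 3.01 ± 0.57 in KO (adjusted p = 0.0134).

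Irgm2, a regulator found at the Golgi, varied least of the members within WT_H2O, WT_DSS and KO_DSS, though not within KO_H2O. It stood at 616, 601 and 636 normalized counts in WT_H2O 1, 2 and 3, and at 479, 787 and 451 in KO_H2O 1, 2 and 3. On DSS it was at 10599, 3704 and 6982 in WT_DSS 1, 2 and 4, and at 3428, 14299 and 8304 in KO_DSS 1, 2 and 3. The lowest DSS library was 5.82 times the highest water library in WT and 4.35 times in KO. The log2 change was 3.39 ± 0.48 in WT (limma, adjusted p = 0.0123) and 3.74 ± 0.48 in KO (adjusted p = 0.00614).

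Igtp, a regulator of the endoplasmic reticulum and of lipid droplets, had 157, 188 and 246 normalized counts in WT_H2O 1, 2 and 3, and 151, 296 and 126 in KO_H2O 1, 2 and 3. On DSS it had 7090, 858 and 2840 in WT_DSS 1, 2 and 4, and 1352, 7702 and 4590 in KO_DSS 1, 2 and 3. The change was 3.73 ± 0.73 in WT (limma, adjusted p = 0.0266) and 4.34 ± 0.73 in KO (adjusted p = 0.0101). Igtp and Irgm2 overlap on the same strand, sharing 162 exon bases in GENCODE M21, which is 8.01% of the exon bases of Igtp and 4.39% of those of Irgm2, so a small part of their reads cannot be assigned with certainty.

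Iigp1, the best studied effector, whose protein coats the vacuole of Toxoplasma, showed the largest change of the 8 in both genotypes. It had 105, 54.3 and 124 normalized counts in WT_H2O 1, 2 and 3, and 63.3, 216 and 95.1 in KO_H2O 1, 2 and 3. On DSS it had 24079, 2248 and 12331 in WT_DSS 1, 2 and 4, and 2262, 26051 and 13780 in KO_DSS 1, 2 and 3. Even the lowest DSS library was 18.2 times the highest water library in WT and 10.5 times in KO. The log2 change was 6.60 ± 0.94 in WT (limma, adjusted p = 0.0123) and 6.40 ± 0.94 in KO (adjusted p = 0.00752).

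Gm12250 encodes Irgb10, an effector that acts on bacterial membranes together with guanylate binding proteins. Its normalized counts were 15.7, 12.4 and 59.3 in WT_H2O 1, 2 and 3, and 22.5, 26.4 and 25.0 in KO_H2O 1, 2 and 3, from 17 to 72 reads a library. On DSS they were 3445, 391 and 1486 in WT_DSS 1, 2 and 4, and 447, 3469 and 2521 in KO_DSS 1, 2 and 3. WT_H2O 3 was the highest water library and still lay below every DSS library. The log2 change was 5.73 ± 0.87 in WT (limma, adjusted p = 0.0136) and 5.95 ± 0.87 in KO (adjusted p = 0.00752). GENCODE M21 types this gene as a processed pseudogene of 1274 exon bases, while RefSeq lists it as protein coding.

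Ifi47 was the effector with the smallest change. It had 190, 157 and 396 normalized counts in WT_H2O 1, 2 and 3, and 168, 219 and 165 in KO_H2O 1, 2 and 3. On DSS it had 4845, 533 and 789 in WT_DSS 1, 2 and 4, and 695, 5297 and 2770 in KO_DSS 1, 2 and 3. In WT the lowest DSS library was 1.35 times the highest water library, and the log2 difference of 2.47 ± 0.81 did not pass (limma, adjusted p = 0.0941). In KO Ifi47 rose by 3.56 ± 0.81 (adjusted p = 0.0219). The difference between these 2 changes, 1.09 with a 95% interval from -1.42 to 3.60, did not pass (adjusted p = 0.99977). Ifi47 shares 111 exon bases with Olfr56 on the same strand and 106 with Gm12188 on the opposite strand.

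Tgtp1 and Tgtp2 encode nearly the same protein, Irgb6, and their coding sequences differed at 4 of 1245 bases, an identity of 99.7%. Other pairs of members were 50.6% to 67.9% identical. Of the 50-base stretches of Tgtp1 transcripts 79.4% also occur in Tgtp2, and 85.8% of those of Tgtp2 occur in Tgtp1, so the split of reads between the pair is uncertain and depends on a counting rule that is not given in the sources used here. Tgtp1 also shares 223 exon bases with Gm12185.

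Tgtp1 had 49.96, 44.0 and 64.3 normalized counts in WT_H2O 1, 2 and 3, and 44.2, 96.0 and 41.3 in KO_H2O 1, 2 and 3. On DSS it had 18159, 1016 and 3522 in WT_DSS 1, 2 and 4, and 736, 18093 and 4413 in KO_DSS 1, 2 and 3. Its DSS libraries were the most spread of any member, by 17.9 times in WT and 24.6 times in KO. The log2 change was 6.24 ± 1.09 in WT (limma, adjusted p = 0.0184) and 6.09 ± 1.09 in KO (adjusted p = 0.0116).

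Tgtp2 had 76.8, 53.0 and 95.6 normalized counts in WT_H2O 1, 2 and 3, and 55.5, 146 and 66.3 in KO_H2O 1, 2 and 3. On DSS it had 8487, 740 and 2494 in WT_DSS 1, 2 and 4, and 859, 8494 and 3188 in KO_DSS 1, 2 and 3. The log2 change was 5.08 ± 0.88 in WT (limma, adjusted p = 0.0180) and 5.12 ± 0.88 in KO (adjusted p = 0.0101). With the pair summed into 1 gene, the change was 5.70 in WT and 5.63 in KO and still passed (limma, adjusted p = 0.0191 and 0.0113).

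The ratio of Tgtp1 to Tgtp2, in normalized counts, lay between 0.623 and 0.831 in the 6 water libraries. On DSS it was 2.14, 1.37 and 1.41 in WT_DSS 1, 2 and 4, and 0.857, 2.13 and 1.38 in KO_DSS 1, 2 and 3. Tgtp2 was thus the higher of the pair in every water library and in KO_DSS 1, and Tgtp1 in the other 5 DSS libraries. No DSS library fell within the range of the water libraries. The closest were KO_DSS 1 at 0.857 and WT_H2O 2 at 0.831, and the latter rests on 64 reads of Tgtp1 and 77 of Tgtp2. With so few reads, that gap was not resolved. Because most stretches of the transcripts are shared, a change in how reads were divided and a change in transcripts cannot be told apart.

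**Figure D2:**
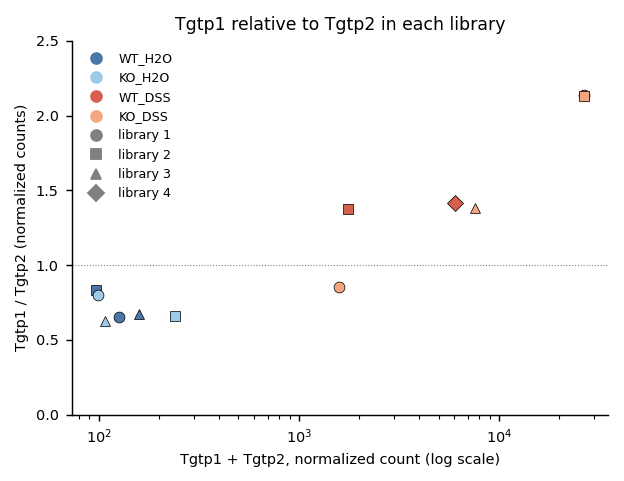
Ratio of Tgtp1 to Tgtp2 in each library against their summed normalized count (log axis). Colours give the group and shapes the library number, and the dotted line marks a ratio of 1. The 6 water libraries lie between 0.623 and 0.831, and WT_DSS 1 and KO_DSS 2, which almost coincide, are the highest at 2.14 and 2.13.

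The count of members that passed within a genotype rested on single libraries. In WT it was 0 of 8 without WT_H2O 1 or without WT_H2O 2, when 14 and 27 of all 23263 genes passed, and 3 of 8 without WT_DSS 1, when 104 of all genes passed. In KO it was 3 of 8 without KO_H2O 1, when 94 of all genes passed, and 5 of 8 when the fit used the KO groups alone, when 132 passed. Calls over all genes were therefore lost along with those of the members. With both genotypes averaged, all 8 passed without any 1 of the 12 libraries, and no log2 change from DSS reversed its sign under any alternative.

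**Figure D3:**
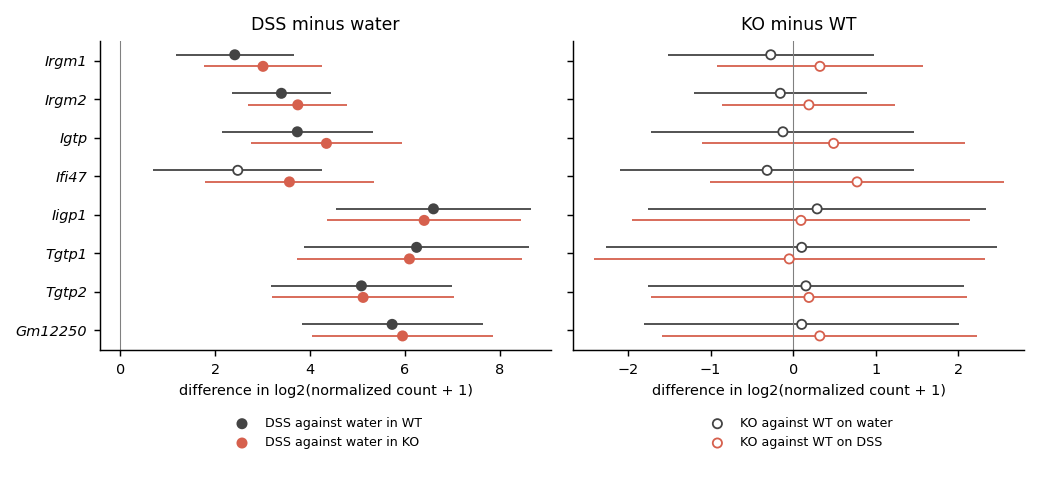
Differences in log2(normalized count + 1) for the 8 IRG genes, DSS minus water at left and KO minus WT at right, with 95% intervals from the limma fit. The fit used 1 variance per gene for all 4 groups. Filled points passed at an adjusted p under 0.05. Ifi47 in WT is the only open point at left, and all points at right are open with intervals that span 0.

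Levels between genes were compared per length, in FPKM. In WT_H2O the mean levels of Irgm2, Irgm1, Ifi47 and Igtp were 5.78, 5.34, 3.38 and 3.34 FPKM, and those of Tgtp2, Gm12250, Tgtp1 and Iigp1 were 0.868, 0.762, 0.562 and 0.548 FPKM. In that order, Igtp and Tgtp2 were the only neighbours whose 3 libraries did not overlap. In KO_H2O Irgm2 was also highest, at 5.47 ± 2.76 FPKM (SD, n = 3), and all neighbours overlapped.

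In WT_DSS the order became Tgtp1, Iigp1, Irgm2, Igtp, Gm12250, Tgtp2, Irgm1 and Ifi47, from 81.7 ± 99.5 to 28.8 ± 33.7 FPKM (SD, n = 3). In KO_DSS it ran from Iigp1, at 84.0 ± 67.1 FPKM, to Ifi47, at 41.2 ± 30.3 FPKM. All neighbours overlapped in both DSS groups, so the order on DSS was not resolved. The summed level of the 8 genes was 16.8 to 25.7 FPKM in WT_H2O, 12.5 to 29.4 in KO_H2O, 114 to 876 in WT_DSS and 127 to 909 in KO_DSS.

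The share of that sum held by the regulators Irgm1, Irgm2 and Igtp was 64.6% to 76.2% in WT_H2O and 67.8% to 72.4% in KO_H2O. On DSS it was 31.7% to 54.8% in WT and 35.2% to 57.1% in KO. Every DSS library had a smaller regulatory share than every water library. Within each DSS group the library with the largest sum, WT_DSS 1 or KO_DSS 2, had the smallest regulatory share, and the library with the smallest sum, WT_DSS 2 or KO_DSS 1, had the largest. In log2 changes, the regulators had a median of 3.39 in WT and 3.74 in KO, and the 5 effectors 5.73 and 5.95. The ranges of the classes overlapped. In WT the regulators ran from 2.41 to 3.73 and the effectors from 2.47 to 6.60. In KO they ran from 3.01 to 4.34 and from 3.56 to 6.40. The effector Ifi47 changed less than the regulators Irgm2 and Igtp in both genotypes.

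**Figure D4:**
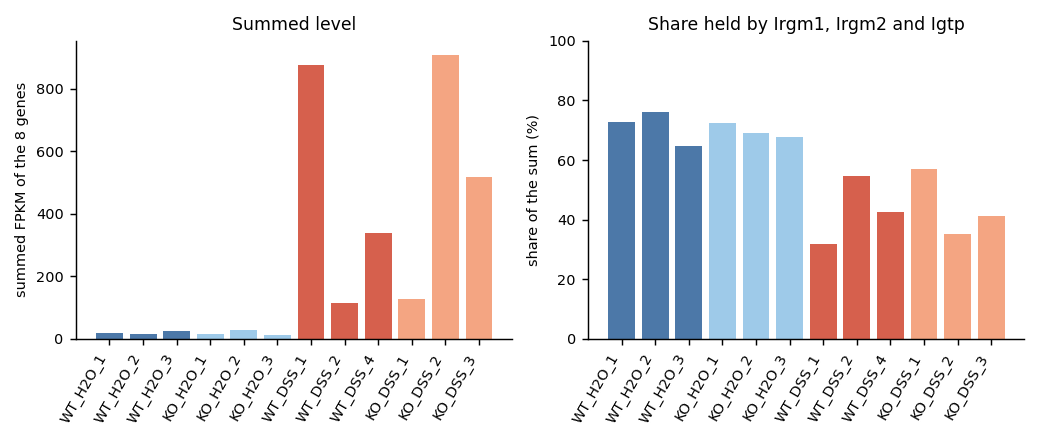
Summed FPKM of the 8 IRG genes in each library (left) and the percentage of that sum held by the regulators Irgm1, Irgm2 and Igtp (right). Bars are single libraries coloured by group. The sum is at most 29.4 FPKM on water and at least 114 on DSS, while the regulatory share is at least 64.6% on water and at most 57.1% on DSS.

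On DSS the 8 genes shared 1 order of libraries. In WT_DSS all 8 were highest in library 1 and lowest in library 2, and in KO_DSS all 8 were highest in library 2 and lowest in library 1. On water, WT_H2O 3 was highest for all 8 members, and KO_H2O 2 was highest for all 8, but the lower libraries varied. WT_H2O 1 was lowest for Igtp and WT_H2O 2 for the other 7, while in KO_H2O library 3 was lowest for 5 members and library 1 for 3. Over the 12 libraries, which share the contrast between DSS and water, Pearson's r between members ranged from 0.935 (Ifi47 and Iigp1) to 0.997 (Tgtp1 and Tgtp2). The highest and lowest libraries of a DSS group differed by 2.86 to 17.9 times in WT and by 4.17 to 24.6 times in KO, depending on the gene.

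Apart from the 8 members, genes among the 10 whose log2 profile was most like the mean profile of the 8 members over the 12 libraries were Tap1 (r = 0.995), Gbp6 (0.991), Gm6161 (0.988), Gm5940 (0.987), Atg3 (0.987), Gm8991 (0.986), Gbp3 (0.985), Herc6 (0.984) and F830016B08Rik (0.982), which is itself an IRG-like gene. Tap1 carries peptides to class I molecules of antigen presentation and changed by 2.65 on the log2 scale in WT and 2.72 in KO.

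No member passed between the genotypes in limma's test, on water or on DSS, and neither did any other gene, 0.00% of 23263. At an unadjusted p under 0.05 there were 757 genes on water and 1215 on DSS, with 0 of the 8 members among them. On water the KO minus WT differences of the members ran from -0.32 (Ifi47) to 0.29 (Iigp1), and on DSS from -0.05 (Tgtp1) to 0.77 (Ifi47). Genotypes overlapped for 8 of 8 members in both treatments, while 9.45% of genes on water and 7.07% on DSS had genotypes that did not overlap.

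The 95% intervals of these differences were wide. On DSS that of Irgm2, the narrowest, ran from -0.86 to 1.24 on the log2 scale, a ratio of 0.552 to 2.36, and that of Tgtp1 ran from -2.42 to 2.32, a ratio of 0.187 to 4.99. The interaction, which asks whether the response to DSS differed between genotypes, ranged from -0.20 (Iigp1) to 1.09 (Ifi47). It passed for 0.00% of genes tested, with 640 genes at an unadjusted p under 0.05 and 0 of the 8 members among those. The fit used 1 variance per gene for all 4 groups, although the members spread more on DSS than on water. The SD of the log2 level of Irgm2 was 0.042 in WT_H2O but 1.04 in KO_DSS. For Tgtp1 these values were 0.273 and 2.31. The intervals thus do not measure the spread of the compared groups alone, and may be too wide on water and too narrow on DSS. Differences between genotypes of the sizes within them were not resolved by this fit, with 3 libraries a group.

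Upstream of the family, Ifng, the gene of interferon gamma, had no read in any of the 6 water libraries, where a count of 0 allows up to 3 reads a library. On DSS it had 9, 0 and 4 reads in WT_DSS 1, 2 and 4, and 0, 18 and 0 in KO_DSS 1, 2 and 3. The largest count in each DSS group was thus in the library with the highest IRG levels, but KO_DSS 3, with 13780 normalized counts of Iigp1, had none at the lowest depth of the series. Ifng was too low to be tested, and these floors cover counting error only.

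Of 22 genes for interferons, their receptors and signalling, 18 were tested. In WT 4 rose and 0 fell (limma, adjusted p under 0.05), and in KO 7 rose and 1 fell, with median log2 changes of 1.01 and 1.12 beside -0.02 and -0.10 over all genes. The genes that rose are 22.2% and 38.9% of those tested from the list, beside 2.16% and 5.0% of all genes. In KO 1328 of all 23263 genes fell. Nlrc5, an activator of class I antigen presentation genes, rose by 3.81 ± 0.62 in WT and 3.28 ± 0.62 in KO, and Stat2 by 2.06 ± 0.44 in each. Irf1, a transcription factor induced by interferons, had a log2 difference of 1.21 ± 0.40 in WT, which did not pass (adjusted p = 0.0924), and rose by 1.64 ± 0.40 in KO (adjusted p = 0.0265). Tyk2, a kinase of the type I interferon receptor, fell by 0.90 ± 0.23 in KO.

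The guanylate binding proteins are a second family of interferon-inducible GTPases that act with the IRGs on vacuoles. All 11 listed members were tested, and 8 rose in WT and 9 in KO, with 0 falling in either. These are 72.7% and 81.8% of the list, beside 2.16% and 5.0% of all genes that rose. Gbp10 had the largest change, 6.87 ± 1.44 in WT and 7.98 ± 1.44 in KO, and Gbp2 rose by 4.32 ± 0.88 and 4.81 ± 0.88. The median log2 change of the family was 3.58 in WT and 3.49 in KO.

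Loading of IRG proteins onto a vacuole needs the conjugation machinery of autophagy. The list of 15 genes tested for it also holds other autophagy genes, ubiquitin adaptors and related enzymes. In WT 3 rose (Atg3, Trim21 and Ube2l6) and 0 fell, and in KO 2 rose (Atg3 and Ube2l6) and 0 fell, with medians of 0.04 and 0.27. The genes that rose are 20.0% and 13.3% of the list, beside 2.16% and 5.0% of all genes. Of those named, only Atg3 belongs to the conjugation machinery. With genotypes averaged, 5 rose, 33.3% of the list beside 13.0% of all genes. The 1 gene of the list that fell was Map1lc3a, by 1.28 ± 0.29 (limma, adjusted p = 0.00851), while 3399 of all 23263 genes fell. Atg3, the enzyme that joins LC3 proteins to lipid, rose by 0.86 ± 0.21 in WT and 0.87 ± 0.21 in KO. Ube2l6, an enzyme that attaches the ubiquitin-like protein ISG15, rose by 2.64 ± 0.63 and 2.54 ± 0.63. Atg5, Atg7 and Atg16l1 had log2 differences between -0.41 and 0.28 and did not pass in either genotype.

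**Figure D5:**
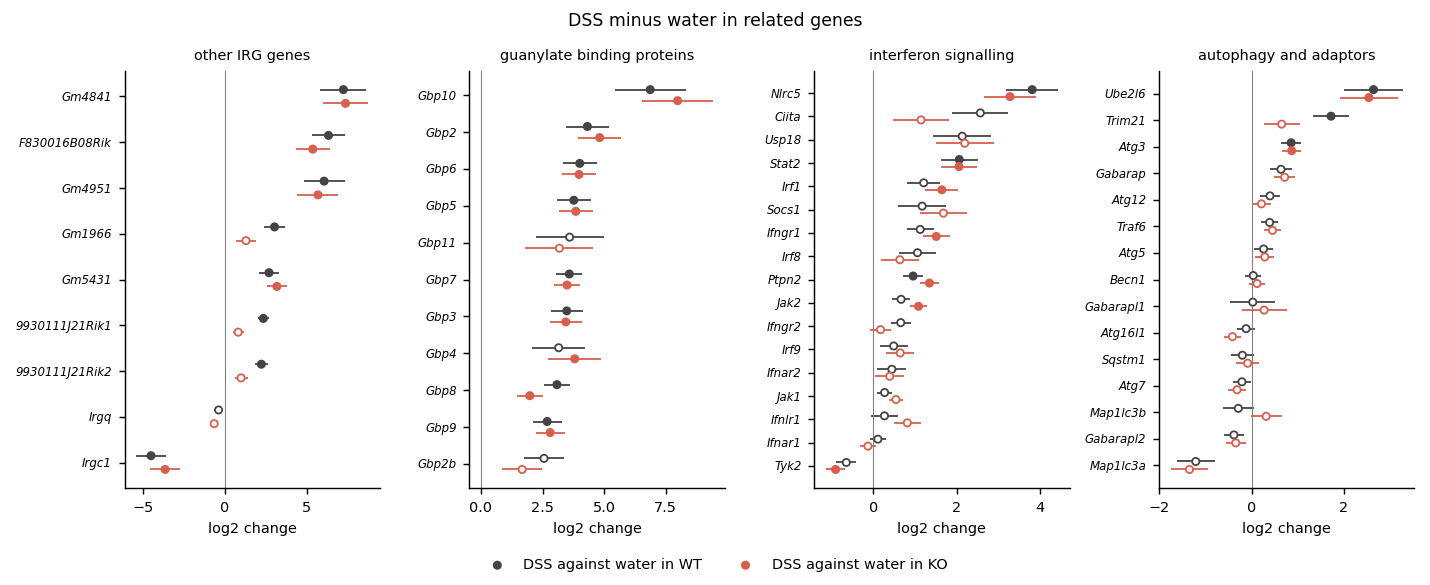
Differences in log2(normalized count + 1), DSS minus water, for tested genes of 4 related lists, in WT (dark) and KO (red) with bars of ± 1 SE. Filled points passed at an adjusted p under 0.05 (limma). Filled points lie to the right of 0 apart from Irgc1 in both genotypes and Tyk2 in KO. Irgc1 had no read in WT_DSS, so its place on the axis there depends on the pseudocount of 1.

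Cell type markers also moved between the groups, as summed FPKM of each list. The 6 neutrophil markers summed to 0.0762 to 2.34 in WT_H2O and 0.294 to 15.1 in KO_H2O, with S100a9 and Cxcr2 at 0 in every water library. On DSS they summed to 34.0, 107 and 7.33 in WT_DSS 1, 2 and 4, and to 319, 42.6 and 52.15 in KO_DSS 1, 2 and 3. Within the DSS groups the neutrophil sum was highest in WT_DSS 2 and KO_DSS 1. Of 4 neutrophil markers tested, 0 rose in WT and 4 in KO (limma, adjusted p under 0.05), beside 2.16% and 5.0% of all genes. The 11 T and NK cell markers summed to 0.926 to 5.69 in WT_H2O and 8.20 to 15.1 in WT_DSS, but to 3.56 to 7.69 in KO_H2O and 3.25 to 8.86 in KO_DSS. Within the DSS groups the T and NK cell sum was highest in WT_DSS 4 and KO_DSS 2. Of the 10 T and NK cell markers that were tested, 0 rose and 0 fell in either genotype. Their median log2 change was 1.93 in WT and -1.06 in KO. With genotypes averaged, 1 of the 10 rose, beside 13.0% of all genes. It was Gzmb, by 3.17 ± 0.93 (limma, adjusted p = 0.0261). The summed FPKM of the 10 macrophage and monocyte markers overlapped between water and DSS in both genotypes. Single genes of that list did move. Of the 10 tested, 1 rose in WT (Mpeg1) and 2 in KO (Mpeg1 and Cd14), and 0 fell (limma, adjusted p under 0.05). These counts stand beside 2.16% and 5.0% of all genes that rose. With genotypes averaged, 3 rose (Cd14, Mpeg1 and Ccr2) and 0 fell, where 13.0% of all genes rose. The 9 epithelial markers were all detected and summed to 6656 to 9946 in WT_H2O and to 3034 to 6467 in the other 3 groups. Within that list the genes did not move one way: with genotypes averaged, Epcam and Cdh1 rose, Muc2 and Cdx2 fell, the other 5 did not pass, and the median log2 change was 0.16. Over all 23263 genes in that comparison, 3020 rose and 3399 fell. The part of these cell types in the IRG levels was not tested.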

How the data were processed

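Colon RNA was sequenced in 12 libraries, 3 in each of 4 groups of genotype and treatment. The authors deposited log2 normalized counts and log2 FPKM, per the labels. STAR and the builds GRCm38 and mm10 are named in the submitters' processing notes, and the read counter, strand setting and annotation are not given in the sources used. The deposited log2 values are log2(count divided by a library factor, plus 1), and 100% came out as whole reads within 0.01, which gave the depth. The 23263 of 40050 genes that averaged 10 or more normalized counts were fitted in limma 3.58.1 (R 4.3.3) on log2(normalized count + 1), with a mean-variance trend and all 12 libraries in 1 fit. This scale understates the change of low genes. Benjamini-Hochberg adjustment ran over all tested genes of a comparison, with 0.05 as the threshold. The steps were tested on simulated data. All 8 members are named whatever their values, with genes among the 10 of most similar profile, and 1 result of these is not reported here. The members and lists were chosen with earlier results of these data known. A further 4 columns matched no sample and were not used. Library numbers were not treated as pairs.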

Additional observations from a re-analysis of the deposited data

How the results depend on the processing

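With both genotypes averaged, all 8 members passed under every alternative run, and the range over left-out libraries was 8 to 8. In WT, where 7 members passed, the count was between 5 and 8 with another filter, pseudocount, scaling, the FPKM table, sample weights, voom, the Tgtp pair summed or the compared groups alone, and it ranged from 0 to 7 when 1 library was left out. In KO, where 8 passed, the same settings gave 6 to 8 apart from the compared groups alone, which gave 5, and leaving out 1 library gave 3 to 8. With the replicate number as a block, 0 members passed in WT, where 46 of all 23263 genes did, and 7 in KO, where 1411 did, and the count was unchanged at 8 for both genotypes averaged and at 0 for the other comparisons. Number 4 occurs only in WT_DSS, so the block also took WT_DSS 4 out of the comparison in WT and left WT_DSS 1 and 2. Nothing in the labels pairs the numbers. Of 15 pairs of same-numbered libraries only 3 had deviations correlated above 0.1 (r from -0.18 to 0.24), while WT_H2O 1 correlated best with KO_H2O 2. The labels thus give no basis for the block. With 3 libraries a group, these correlations cannot exclude that same-numbered libraries share an origin. KO against WT and the interaction gave 0 members under every setting and with any 1 library left out (0 to 0). In KO the median log2 change of all genes from DSS was -0.10, 0.00 with the FPKM table and 0.01 with quantile normalization. The cause of these changes was not tested. Depth limits Ifng and, on water, Gm12250.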

Other observations

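Of 10 other IRG and IRG-like genes listed, 9 were tested. In WT 7 rose and 1 fell, and in KO 4 rose and 1 fell (limma, adjusted p under 0.05), with median log2 changes of 2.68 and 1.28. The genes that rose are 77.8% and 44.4% of those tested from the list, beside 2.16% and 5.0% of all genes. Over all 23263 genes, 600 fell in WT and 1328 in KO. Gm4951 had 3272, 139 and 686 normalized counts in WT_DSS 1, 2 and 4, and 139, 2961 and 961 in KO_DSS 1, 2 and 3, against at most 41.1 in any water library, which is the same order of libraries as in the 8 members. F830016B08Rik rose by 6.31 ± 1.03 in WT and 5.35 ± 1.03 in KO. Irgq, a distant relative that is not known to be induced by interferon, had log2 differences of -0.39 ± 0.25 and -0.66 ± 0.25, which did not pass in either genotype. With genotypes averaged it fell by 0.53 ± 0.18 (limma, adjusted p = 0.0457), and its DSS libraries lay below the water libraries of their genotype. Irgc1, known from testis, passed as lower on DSS in both genotypes. It had 11.1 to 49.4 normalized counts on water, no read in any WT_DSS library, and 0, 0 and 2 reads in KO_DSS 1, 2 and 3. Taking 3 reads in each library as the limit of a count of 0, it was at least 8.78-fold lower on DSS in WT, and the list's median in WT was 2.68 with the gene at that bound too.

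Gm1966, 9930111J21Rik1 and 9930111J21Rik2 passed in WT, with log2 changes of 3.02, 2.34 and 2.22, and did not pass in KO, with 1.28, 0.81 and 0.98. The interaction did not pass for any of these 3 genes. KO_H2O 2 was the highest water library for each of them, with 598, 261 and 467 normalized counts. KO_H2O 3 was the next, with 224, 197 and 207. On DSS their mean normalized counts were 802, 528 and 750 in WT and 578, 322 and 499 in KO, and KO against WT on DSS did not pass.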
